A study of Drosophila melanogaster with 2 samples.

Results

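Xrp1 and Irbp18 are a pair of Drosophila melanogaster genes whose products work together as a transcription factor. They were described in ChIP-seq region lists for p53 in whole embryos. Every region whose summit lay in either gene body or within 5 kb of it was taken, in 4 lists. This gave 81 of 89042 regions: 59 at Xrp1 and 22 at Irbp18. The same place can be in several lists, so these totals count list entries and not distinct regions. By list, 4 of 2290 final regions, 26 of 26752 pooled regions, 22 of 30000 regions of replicate 2 and 29 of 30000 of replicate 3 were taken. The genes were chosen by their signal values in these same lists, with Xrp1 holding the strongest region. Those values are therefore given as a description, with no test.

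All embryos were of the strain p53-MiMIC-GFP. They carry an intronic insertion in p53 that adds an eGFP exon, so the p53 locus itself drives a p53-eGFP fusion protein. The embryos were 0 to 24 h old, of pooled sex and taken whole, so all tissues and stages of embryogenesis were mixed. Chromatin was sonicated to 200 to 800 bp and precipitated with an anti-GFP antibody according to one label, while another names p53 as the antibody target. The 2 biological replicates, numbered 2 and 3, form 1 group, and no untagged, mutant or irradiated embryos were analysed here.

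p53 is a transcription factor that acts in the response to DNA damage, and Xrp1 is known in flies as a gene induced by irradiation through p53. Xrp1 carries a basic leucine zipper (bZIP), a domain that binds DNA as a pair, and an AT hook. Its partner is Irbp18, a small bZIP protein of the C/EBP family. In flies the pair is best known from cell competition, where it acts in cells that lack a ribosomal protein gene copy and are lost beside wild-type neighbours.

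The strongest region of all 4 lists lay inside Xrp1, and the sequence around its summit is shown because it carries that signal. Letters are from the RefSeq Release 6 genome (dm6), plus strand, 3R:18924281-18924580, and overlap no annotated exon. Capitals mark, from left to right, a CRE half-site, a p53 half-site with 1 mismatch, a second CRE half-site and a GA run. Another p53 half-site with 1 mismatch, at 3R:18924535-18924544, lies 104 to 113 bp after the summit and is left in lower case.

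Xrp1 intron: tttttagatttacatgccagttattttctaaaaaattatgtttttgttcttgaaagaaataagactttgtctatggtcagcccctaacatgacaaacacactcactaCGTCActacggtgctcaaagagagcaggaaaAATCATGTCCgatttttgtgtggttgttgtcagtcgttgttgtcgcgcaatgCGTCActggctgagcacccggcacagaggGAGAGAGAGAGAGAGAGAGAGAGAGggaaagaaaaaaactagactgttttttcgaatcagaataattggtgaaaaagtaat

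For comparison, these are the sites nearest to a full p53 site in the second Xrp1 region and in the first Irbp18 region, with mismatched positions in lower case and the rest in capitals. The Xrp1 one is at 3R:18929012-18929031 and the Irbp18 one at 3L:11098403-11098422.

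Xrp1 second region: AAACgAGTTTAAtCTTGTTg
Irbp18 first region: tGGtTTGCTCAGACTTtCaC

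Xrp1 (FBgn0261113) spans 3R:18914968-18926989 in dm6 on the plus strand. It has 7 annotated transcripts from 4 start sites. The transcripts RA, RB, RF and RG encode 668 residues, and RC, RD and RE encode 406. RD begins farthest downstream, at 18924070. The peak region lies at 3R:18923986-18924638, with its summit at 18924431. That is 361 bp downstream of the RD start, in the 932 bp first intron of RD and in an intron of all 7 transcripts. Of the final summits, 56.8% were nearer to a start site of a protein-coding gene, and the median distance was 208.5 bp.

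The signal value is the authors' own measure of a region's strength, and how it was scaled was not stated in the material used here. At this region it was 820.2 in replicate 2 and 1150.5 in replicate 3, and 1969.7 in the pool of both. It ranked 1 in every list. The second strongest region had 501.9 in replicate 2, 646.4 in replicate 3 and 1071.7 in the pool, so the Xrp1 region stood 1.63, 1.78 and 1.84 times above it. The deposited q was 0.000461 in replicate 2, 0.000213 in replicate 3 and 0.000244 in the pool. These q-values are the lowest of each list and do not single out the region, since 2047 pooled regions share the lowest one.

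Both replicates put the summit at nearly the same base. It lay at 18924430 in replicate 2 and at 18924437 in replicate 3, 7 bp apart. Among 2282 final regions matched in both replicate lists the median gap was 25 bp, and 21.1% had a gap of 7 bp or less. Replicate 3's signal was 1.40 times replicate 2's, against a median of 1.49 and quartiles of 1.19 and 1.93 over the matched regions. At 653 bp the pooled region was the widest of the 2290 final regions, whose median width was 396 bp. It was 368 bp wide in replicate 2, where 384 bp was both the median and the maximum. In replicate 3 it was 434 bp wide, above that list's median of 396 bp and below its maximum of 465 bp.

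**Figure D1:**
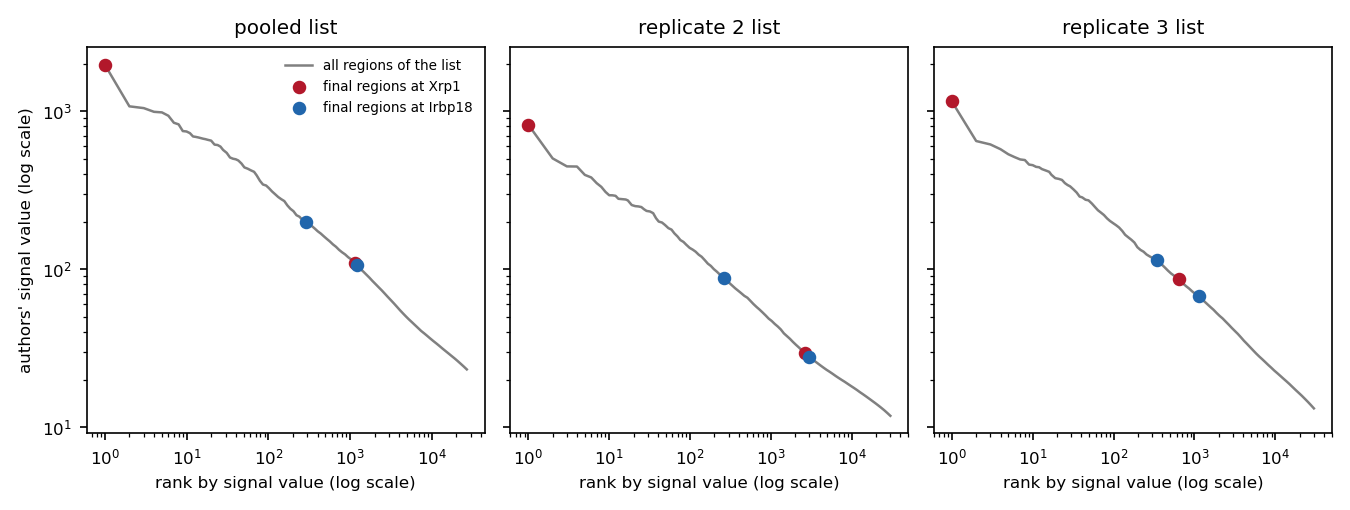
Authors' signal value (log scale) against rank by that value (log scale) in the pooled list and in each replicate's list. The grey line is all regions of the list, red points are the final regions at Xrp1 and blue points those at Irbp18. One red point stands at rank 1 in all 3 panels, above the line's next value, and the first Irbp18 point lies at ranks 263 to 345.

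Within 500 bp of the 3 upstream Xrp1 start sites there was no final summit, although transcripts from those starts include all those encoding the longer protein. At the RB start, 18914968, the strongest signal was 13.7 in replicate 2, 32.4 in replicate 3 and 41.1 in the pool. At 18918260, where RA, RC, RE and RG begin, it was 16.7 in replicate 2, 38.7 in replicate 3 and 41.3 in the pool. Replicate 3 was higher than replicate 2 at both of these starts, but the values come from different summits. At RB these were 18915201 in replicate 2 and 18914672 in replicate 3, and at 18918260 they were 18918669 and 18918235. Over matched final regions replicate 3 was also the higher, by a median of 1.49 times. At the RF start, 18919788, replicate 2 had 27.3 and the pool 31.1, while replicate 3 listed no region within 500 bp. The RD start, with the values of the peak region, therefore stood far above the other 3 starts in each list.

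The replicates differed on whether the 2 farthest upstream starts had a region at a deposited q of 0.05 or less. Replicate 3 had a summit 25 bp from 18918260 with a q of 0.00275 and one 296 bp upstream of RB with a q of 0.018. In replicate 2 the strongest regions near those starts had q-values of 0.634 and 0.825. In the pool they had 0.219 and 0.226. A shared control library was used for both replicates and was not analysed here.

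The whole Xrp1 window held 20 pooled regions, 16 of replicate 2 and 21 of replicate 3. A q of 0.01 or less was held by 3 of the 20, 1 of the 16 and 4 of the 21, against 12.5%, 6.16% and 14.0% of all regions in those lists. At a q of 0.05 or less the counts were 3, 5 and 7, against 17.1%, 8.94% and 19.7%. The regions with a higher q had signals of 24.1 to 48.6 in the pool, 13.5 to 27.3 in replicate 2 and 13.9 to 27.1 in replicate 3. The strongest region of the window exceeded the next by 18.0 times in the pool, 25.5 times in replicate 2 and 13.4 times in replicate 3.

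**Figure D2:**
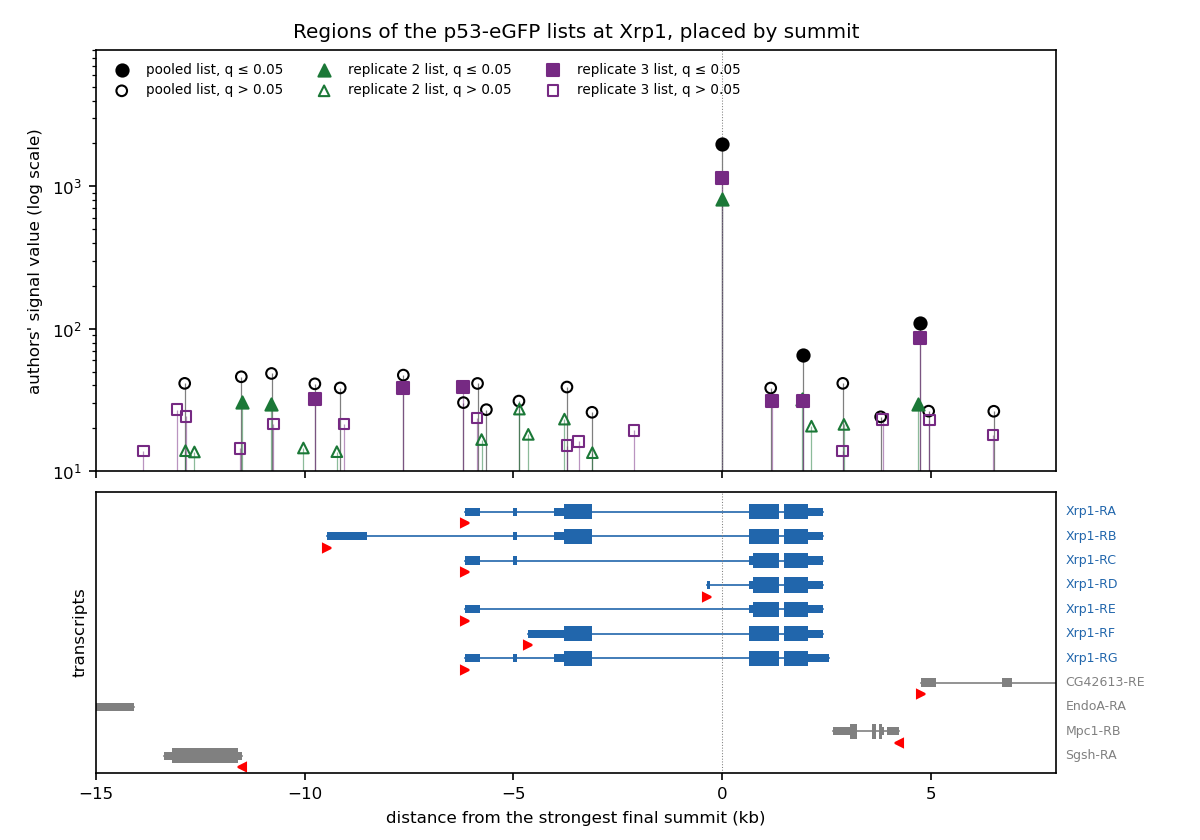
Regions at Xrp1 by distance of their summit from the strongest final summit (kb, x axis) and by authors' signal value (log scale), for the pooled list (circles), replicate 2 (triangles) and replicate 3 (squares); filled symbols have q of 0.05 or less. The lower panel draws transcripts with coding exons thick and start sites as red arrowheads, and the column of high values at 0 stands just after the start of Xrp1-RD.

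The second final region of the Xrp1 window lay beyond the gene, between genes, at 3R:18928982-18929377. Its summit, 18929180, was 2191 bp past the end of Xrp1 and 4749 bp from the first summit. It was 16 bp upstream of the start of CG42613 and 521 bp from that of Mpc1, which encodes a subunit of the mitochondrial pyruvate carrier. The signal was 29.4 in replicate 2 (rank 2645, q 0.0497), 86.0 in replicate 3 (rank 636, q 0.000213) and 109.6 in the pool (rank 1139). Replicate 3 was 2.92 times replicate 2 here, above the upper quartile of that ratio, and their summits were 45 bp apart. By position this region is thus nearest to a neighbour and not to Xrp1.

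A weaker region lay inside the last coding exon of Xrp1, at 3R:18926168-18926563, and was not in the final list. Its signal was 32.2 in replicate 2 (q 0.0219), 31.3 in replicate 3 (q 0.0252) and 65.9 in the pool (q 0.00493, rank 2943). The signal values were close, but the region ranked 2171 in replicate 2 and 5133 in replicate 3. Over matched final regions the lower quartile of replicate 3 over replicate 2 was 1.19. Other regions with a q of 0.05 or less came from 1 replicate. In replicate 2 they were 2 bp from the start of Sgsh (30.7, summit 18912924) and upstream of it at 18913626 (29.4). In replicate 3, besides those at the starts, they had summits at 18916786 (38.2) and 18925622 (31.0), both inside Xrp1.

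The nearest final summits outside the Xrp1 window were 51927 bp beyond it, by gukh (99.8), and 150941 bp before it, by Epg5 (80.4). EndoA and Sgsh, the neighbours upstream of Xrp1, had no final summit in this window.

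Irbp18 (FBgn0036126) is a short gene of 741 bp at 3L:11097446-11098186 on the minus strand. Its 2 transcripts share a start site at 11098186 and encode 113 residues. APP-BP1, which encodes a subunit of the enzyme that activates the ubiquitin-like protein Nedd8, starts 226 bp away on the other strand. The strongest region, 3L:11098136-11098531, has its summit at 11098334 between the divergent starts. The summit was 148 bp upstream of Irbp18 and 78 bp upstream of APP-BP1, and it lay in the annotated 3′ UTR of a further gene, CG33947.

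The signal at this region was 87.4 in replicate 2 (rank 263), 113.4 in replicate 3 (rank 345) and 198.6 in the pool (rank 288). Both replicates ranked it within the strongest 345 regions of their lists. The summits were 17 bp apart, and replicate 3 was 1.30 times replicate 2, within the quartiles of all final regions. A summit between starts so close to each other cannot be given to Irbp18 or to APP-BP1 by position.

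A second final region, 3L:11098336-11098731, overlapped the first by 196 bp, with its summit 200 bp from the first summit and inside APP-BP1. Such overlaps between final regions involved 108 of the 2290 (4.72%). The signal was 27.9 in replicate 2 (rank 2970, q 0.0743), 67.2 in replicate 3 (rank 1125, q 0.000213) and 106.0 in the pool (rank 1198). Replicate 2 was the lower, at a q above 0.05, and replicate 3 was 2.41 times it. The summit lay 348 bp from the Irbp18 start, in the 5′ UTR of APP-BP1, 122 bp past its first start and 95 bp before its second. Like the first, it also lay in the annotated 3′ UTR of CG33947.

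The Irbp18 window held 6 pooled regions, 6 of replicate 2 and 8 of replicate 3, and a q of 0.01 or less was held by 2, 1 and 2 of them, against 12.5%, 6.16% and 14.0% of all regions in those lists. The counts at 0.05 were the same, against 17.1%, 8.94% and 19.7%. The others had signals of 38.5 to 47.8 in the pool, 13.6 to 27.9 in replicate 2 and 14.3 to 21.5 in replicate 3. The strongest exceeded the next by 1.87, 3.13 and 1.69 times, so the contrast inside the window was smaller than at Xrp1. A final region at 3L:11092209-11092604, with 91.3 (rank 1613), reached into the window, but its summit lay 39 bp outside and 551 bp from the start of JIL-1, a histone kinase gene. On the other side the nearest lay 15644 bp away, by FoxK (127.4).

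**Figure D3:**
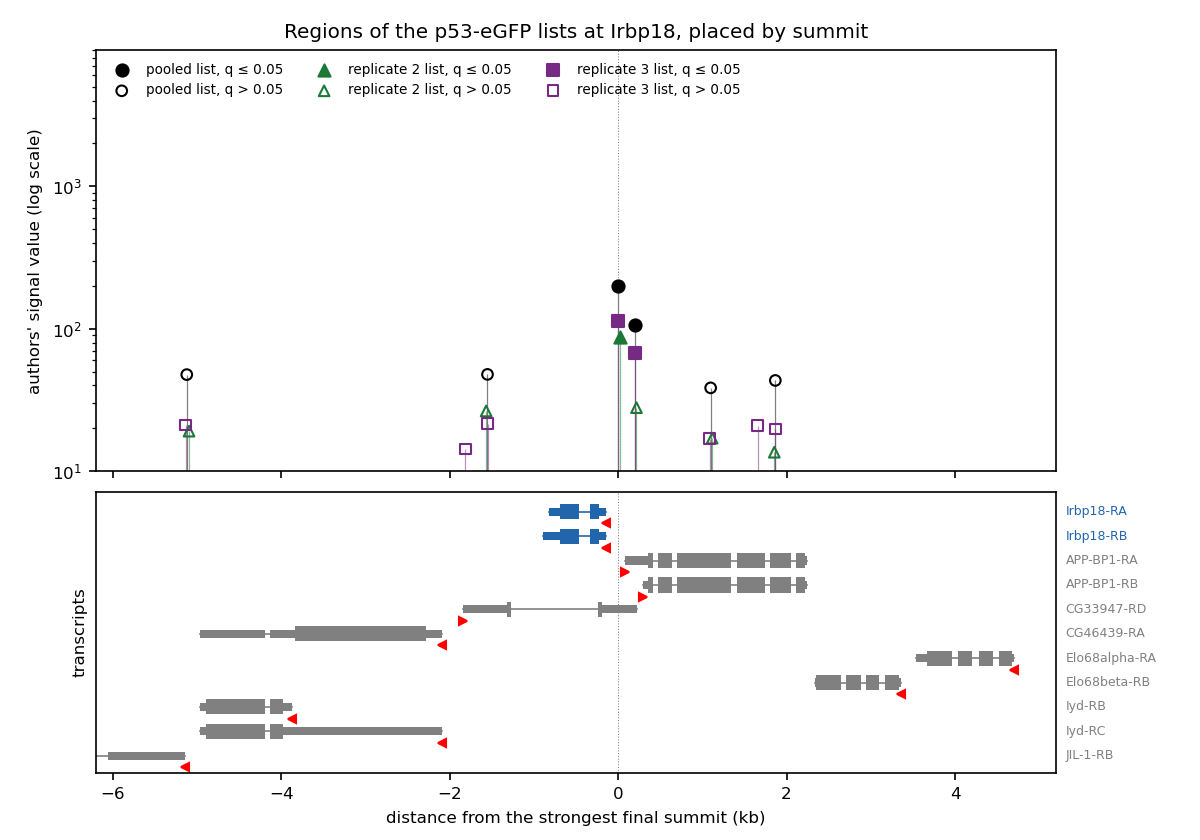
Regions at Irbp18 by distance of their summit from the strongest final summit (kb, x axis) and by authors' signal value (log scale), with symbols for the pooled list (circles), replicate 2 (triangles) and replicate 3 (squares), filled at q of 0.05 or less. The lower panel shows transcripts with start sites as red arrowheads; the highest values stand between the divergent starts of Irbp18 and APP-BP1, reaching 198.6 in the pool.

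Having a final region in the window was common among genes. It held for both Xrp1 and Irbp18, and for 4720 of 13968 protein-coding genes (33.8%). Both had 2 such summits, and 9.67% of genes had 2 or more. Longer genes have wider windows. Among genes within 1.5-fold of the length of Xrp1 the shares were 48.2% with a summit and 18.4% with 2 or more. Among genes within 1.5-fold of the length of Irbp18 they were 21.3% and 4.73%.

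Sequence was compared within 100 bp of each final summit, on both strands. Of 10 words searched, the Xrp1 peak held 1, GAGAG, the word of the GAGA factor. It occurred 12 times, counting overlaps, of which 11 made up the 25-base GA run 69 to 93 bp from the summit. The word was in 25.5% of final and 25.1% of pooled regions, but 5 final regions (0.218%) held it as often, Xrp1 included. A GA run this long was in 3 final regions (0.131%) and 20 pooled ones (0.0748%).

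The longer words bound by bZIP pairs were not in the windows of the 4 regions. These were the C/EBP-ATF composite TTGCATCA (0.262% of final and 0.617% of pooled regions), C/EBP TTGCGCAA (0.218% and 0.363%) and CRE TGACGTCA (0.437% and 0.295%). The AP-1 word TGANTCA (3.76% and 3.72%) was also not there. The CRE half-site TGACG, looked for after the Xrp1 sequence had been read, occurred 2 times at Xrp1, 43 to 39 bp before and 40 to 44 bp after the summit. One copy or more was in 15.6% of final and 18.8% of pooled regions, and 48 final regions (2.10%) had as many.

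The DREF word TATCGATA (6.51% and 2.05%), the M1BP word GGTCACAC (4.72% and 1.85%), the E-box CACGTG (3.45% and 2.95%) and the Zelda word CAGGTA (4.54% and 4.64%) were in none of the 4 regions' windows. The TATA word TATAAA (23.2% of final and 17.3% of pooled regions) was in the window of the second Irbp18 summit and of no other of the 4. The same copy lay 107 to 112 bp after the first Irbp18 summit, just outside that window.

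A full p53 site, meaning 2 half-sites with at most 1 bp between them and at most 3 mismatches in 20 positions, was within 100 bp of none of the 4 summits. It was in 7.21% of final and 5.93% of pooled regions. The best match had 5 mismatches at the Xrp1 peak and at the second Irbp18 region, and 4 at the other 2. Of final regions, 79.5% had a match with 5 mismatches or fewer and 32.2% one with 4 or fewer. The Xrp1 peak held a half-site with 1 mismatch 12 to 3 bp before the summit, as did 48.6% of final and 45.8% of pooled regions somewhere in their windows. An exact half-site was in 4.54% of final regions and in none of these 4. Over whole regions 1 full site with 3 mismatches appeared, 168 bp before the summit at CG42613, and it is the second Xrp1 sequence shown. Searched in the same way, 12.9% of final and 11.5% of pooled regions held a full site.

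GC content separated the 2 loci. It was 48.3% and 48.8% at the Xrp1 summits, against a median of 39.8% over final regions, and was lower in 85.7% and 87.2% of them. It was 36.3% and 30.3% at the Irbp18 summits, lower in 27.5% and 4.63% of final regions.

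The wider bZIP family was read from a list of 21 genes, all matched to the annotation. A final summit lay in the windows of Xrp1, Irbp18 and 11 of the other 19 (57.9%), against 33.8% of all protein-coding genes. The list was chosen with earlier results of these data known, so this count is no independent evidence. The other bZIP genes were long, with a median of 8662 bp against 2164.5 bp for all genes, which widens their windows. The median pooled rank of their strongest region was 2171, against 3613 over all genes with a pooled region.

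The bZIP genes closest to Xrp1 in rank were REPTOR, a factor restrained by TORC1, with 611.4 (rank 23) 711 bp from its start, and Atf3, with 385.8 (rank 73) 263 bp from its start. Next was slbo, the fly C/EBP gene that drives border cell migration, with 265.3 (rank 158) 4530 bp away, and then Irbp18. These 3 genes ranked above Irbp18 in both replicates. The clock gene Pdp1 had 138.4 (rank 673), and CrebB had 106.7 (rank 1185). Jra and kay, which encode Jun and Fos, had 96.7 and 89.0, CrebA had 83.2, maf-S 78.7, vri 78.0 and crc, the ATF4 gene, 76.2. The nearest start was another gene's at Jra (14-3-3zeta), maf-S (CG11110) and crc (Mondo), as it was at Irbp18. The 8 bZIP genes with no final summit, among them Xbp1, cnc and REPTOR-BP, had strongest pooled regions ranked from 2334 to 25157. The final list ended at pooled rank 2290, with a signal of 75.8. Thus crc (rank 2264) lay just inside it, and cnc (75.1, rank 2334) and REPTOR-BP (73.1, rank 2459) lay just outside.

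The second list held 19 genes that work upstream of, downstream of or beside Xrp1 in damage, cell competition and stress signalling. Several were already known to carry regions in these data, so the count is no independent evidence. A final summit lay in 14 windows (73.7%), against 33.8% of all protein-coding genes. With windows of 1 kb each side it lay in 7 of the 19, against 19.77% of all protein-coding genes. The median pooled rank was 1142, against 3613 over all genes with a pooled region, and the median gene length 4711 bp, against 2164.5 bp. In 7 of the 14 the nearest start belonged to another gene, and in 4 the summit was within 1 kb of the gene's own start. These counts were not set beside the same over all genes with a final summit.

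Those 4 were egr, the fly tumour necrosis factor gene (675.4, rank 15, 55 bp), p53 itself (609.8, rank 24, 191 bp), RpS12, a ribosomal protein gene that acts upstream of Xrp1 in cell competition (127.1, rank 811, 15 bp), and Thor, the 4E-BP gene (117.4, rank 977, 44 bp). The cell death activators rpr (686.3, rank 13) and hid (277.0, rank 144) had their strongest summit 4847 and 2012 bp from their starts, and puc (103.9, rank 1250), a phosphatase gene of JNK signalling, 7625 bp away. The eIF2alpha kinase gene Gcn2 (596.0, rank 26) had its summit 80 bp from PNPase, and the ATM gene tefu (599.0, rank 25) 109 bp from Art3. PEK (112.1), caz (109.3), Gadd45 (106.6), lok (93.8) and crc also had the nearest start of a neighbour, in order RpL35A, ERp44, Adk3, bwa and Mondo. Irbp and Ku80, which encode the Ku subunits of DNA end joining, had no final summit, nor did Ilp8, upd3 or mei-41.

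**Figure D4:**
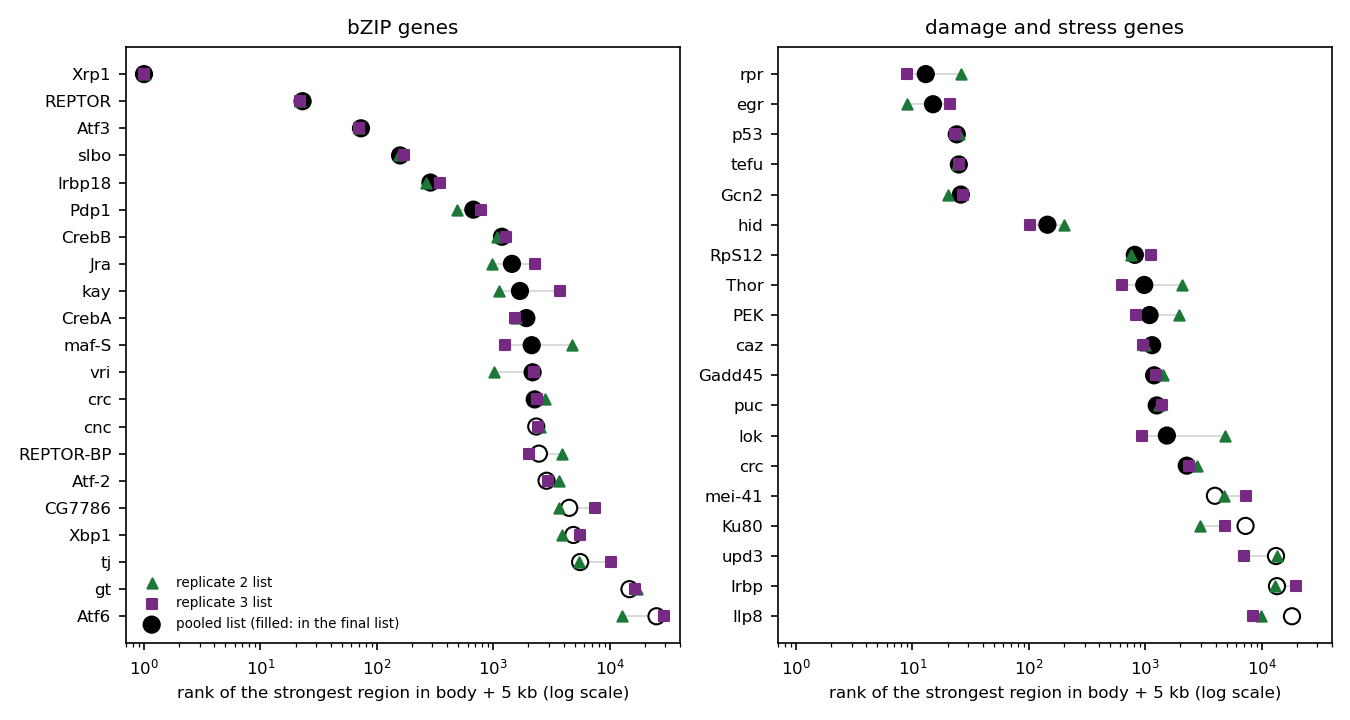
Rank (log scale) of the strongest region in the gene body and 5 kb each side, for bZIP genes and for damage and stress genes, in replicate 2 (triangles), replicate 3 (squares) and the pool (circles, filled where the region is in the final list). Xrp1 stands at rank 1 in all lists, and among bZIP genes Irbp18 follows REPTOR, Atf3 and slbo.

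Genes were also ordered by how near the ranks of their strongest region in both replicates (2 samples) were to those of Xrp1 or of Irbp18, as a distance between log10 ranks. The 5 nearest to Xrp1 of 12431 genes were CG2680, CG2681, Lint-O, Ugalt and eIF2Bbeta. All 5 share 1 region, nearest to the start of Ugalt, with ranks of 2 and 4 in replicates 2 and 3 (distance 0.673). The nearest to Irbp18 of 12427 genes were CG15747 and RpS15Aa, which share a region with ranks 262 and 353 (distance 0.0101). They were followed by CG14480, CG42239 and CG43324, at ranks 258 and 335 (distance 0.0153), among 8 genes that share a region nearest to Ns2. These lists therefore hold 1 region for Xrp1 and 2 for Irbp18.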

How the data were processed

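ChIP-seq region lists for p53-eGFP from 2 biological replicates (numbers 2 and 3) were analysed in dm6. Per the labels and the deposited provenance lists, the authors called regions in each replicate and in the pool against 1 shared control library, and selected the final list by the irreproducible discovery rate. The replicate and pooled lists hold background regions too. The deposited signal value per region is the authors' strength measure. The deposited −log10 q-value per region was turned into q. For the aligner, caller, signal scaling and rate threshold the sources used here give nothing. No read numbers were used, so the depth behind a region is unknown. The control library and the dm3 lists were not used here.

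Summits were placed in gene bodies with 5 kb each side (Ensembl release 115), and ranks were set by signal value within a list. Start sites were those of protein-coding genes, so noncoding genes were left out of the nearest-start distances. All 89042 regions ended within the chromosome lengths of Release 6. Words were counted in 201 bp at each summit. Python 3.11.15, numpy 2.4.6, pandas 2.3.3 and matplotlib 3.10.9 were used. The site and window searches were tested on simulated data. No test between conditions was run, since there is 1 group. Counts are set beside the same over all genes or regions, apart from those by start site among the damage and stress genes and some under alternative settings.

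Named are Xrp1 and Irbp18 with their final regions and all with q of 0.05 or less, genes in their windows, listed genes with a final summit and the 5 genes nearest in rank. Listed genes with no final summit, and genes beside the windows, are named in addition, after their values were seen. The members and lists were chosen with earlier results of these data known. Alternatives were other windows, overlap rules, q thresholds, mismatch limits, each replicate alone and the upper part of the final list. Sequences are from RefSeq.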

Additional observations from a re-analysis of the deposited data

How the results depend on the processing

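The Xrp1 peak had rank 1 by signal value in each replicate alone. Of 67 values under alternatives, over 13 results, 47 stayed within a tolerance and 20 did not. Limiting start sites to protein-coding genes, counted among the 47, repeated the main setting and so could not move. The tolerance was 1.5-fold for counts and ranks, the 95% binomial interval for the share of genes, and the spread between the replicates (1 SD, 4.95 bp at Xrp1 and 12 bp at Irbp18) for distances. With 2 replicates that SD is smaller than the gap between them, so 1 replicate alone can fall outside it by the rule itself. With windows of 1 kb each side, 1 final region was left at Xrp1, 7 damage and stress genes had a final summit and the share of protein-coding genes was 19.77%. With 10 kb, Irbp18 had 4 final regions, all with a q of 0.01 or less, and the share was 45.9%. In the upper part of the final list 1 region stayed at Irbp18, 6 bZIP genes had a summit and the share was 19.76%. With either replicate left out, no final list could be selected again. In its place, the top 2290 by signal value were taken from the list of the replicate that was kept. Irbp18 had 1 to 2 regions in this stand-in list and 1 to 2 at a q of 0.01 or less, 1 in each case without replicate 3. Xrp1 had 1 to 4 at that q, with 1 without replicate 3, and the share of genes ran from 32.71% to 34.44%. Because the list size was held at 2290, this share cannot show whether the final list itself is stable. Without replicate 3, Xrp1 still had 2 regions in the stand-in list. The second was the one in its last coding exon (replicate 2 rank 2171) and not that at CG42613 (rank 2645). Ranked by −log10 q, the Irbp18 and Xrp1 regions were both tied at rank 1, among 2047 pooled regions at the highest value, so that ranking separates neither. The strongest summit lay 360 to 367 bp from a start at Xrp1 and 61 to 78 bp at Irbp18, or 148 bp from Irbp18's own start. At most 4 mismatches gave 2 of the 4 regions a full p53 site, and searching whole regions gave 1 region a full site. Whole regions also gave 4 pairs of a region and a word it held, against 2 within 100 bp of the summits. The replicate-based sequence windows, and the CRE half-site with the 1-mismatch p53 half-site, were chosen after seeing the data. The causes were not tested. Neither reads per region nor the control were used, so what depth limits is unknown. No paired analysis was possible because there is 1 group.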
